A study of Caenorhabditis elegans with 2 samples.

Results

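The intervals described here are the candidate ChIP-seq intervals of NHR-21 whose summit lies in the 2 piRNA domains of chromosome IV of Caenorhabditis elegans. They were chosen by position alone, as pooled candidates with a summit between 4500000 and 7000000 bp (first domain) or between 13500000 and 17200000 bp (second domain) in ce11. Of 30000 pooled candidates, 1307 met this rule, 664 in the first domain and 643 in the second. A further 3402 candidates lay on the rest of chromosome IV. Of the 1307 intervals, 152 were also in the optimal list, the authors' set of intervals past a reproducibility threshold.

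The worms were OP361 animals, unc-119(tm4063) III; wgIs361, so an unc-119 mutation and an integrated insertion with an eGFP fusion of nhr-21 were present in every sample. Both biological replicates were whole L2 larvae of mixed sex, of unknown age, and formed 1 group. The antibody is labelled nhr-21 although the fusion carries eGFP, and the labels do not name the promoter or cells that express the fusion. No control sample was analysed here, and no comparison between conditions was possible. Read totals are not in the interval lists, so depth is unknown and every interval given covers counting error of intervals or genes only. In whole animals, strong binding in few cells and weak binding in many cannot be told apart.

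piRNAs, called 21U-RNAs in this worm, are small RNAs of the germline that guide the Piwi protein PRG-1 to foreign and transposon-like transcripts. Nearly every piRNA is transcribed by RNA polymerase II from its own tiny gene, and most of these genes crowd into a pair of broad domains of chromosome IV. Many carry the word CTGTTTCA a short way upstream, where a complex of PRDE-1, SNPC-4, TOFU-4 and TOFU-5 gathers. The L2 larva has a small number of germ cells among many somatic cells.

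The 2 domains differed in the number of piRNA genes. The first held 2816 annotated piRNA genes in 2.5 Mb, or 1126 per Mb, and the second held 11388 in 3.7 Mb, or 3078 per Mb. The rest of chromosome IV held 510, or 45.2 per Mb. Protein-coding genes were sparser in the domains, at 193 per Mb in the first and 124 per Mb in the second, against 207 per Mb on the rest of the chromosome.

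The sequences under a few summits show what kinds of DNA the intervals covered. Each is the plus strand of WBcel235, which has the coordinates of ce11, centred on the summit with 50 bp to either side, read from the RefSeq genome. The strongest interval of each domain comes first, with no capitals. The next pair holds the strongest interval of each domain that has a piRNA gene within 250 bp of its summit. In the first of them capitals mark the bases of a tRNA gene under the summit, and in the second the bases of 21ur-13200, which lies on the minus strand.
First domain, rpl-20 and Y17G9B.5, IV:4750018-4750118: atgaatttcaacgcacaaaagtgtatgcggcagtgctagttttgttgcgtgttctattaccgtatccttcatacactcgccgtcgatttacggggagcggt
Second domain, nearest gene irld-18, IV:14594360-14594460: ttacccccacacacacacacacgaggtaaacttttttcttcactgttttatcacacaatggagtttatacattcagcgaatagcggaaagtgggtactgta
First domain, tRNA gene near 21ur-5229, IV:5967123-5967223: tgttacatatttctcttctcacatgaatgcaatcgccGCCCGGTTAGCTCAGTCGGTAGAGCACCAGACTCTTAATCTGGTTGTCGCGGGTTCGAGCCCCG
Second domain, 21ur-13200, IV:16181001-16181101: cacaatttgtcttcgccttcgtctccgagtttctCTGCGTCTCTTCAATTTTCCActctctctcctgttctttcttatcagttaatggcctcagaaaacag

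Only 3 of the 152 optimal intervals held the piRNA upstream word in this window, so all 3 are shown, with CTGTTTCA and, in the interval within fkh-7, CACGTG in capitals. In 1 of them, beyond the 3′ side of dmd-6, the word belongs to an annotated piRNA gene, 21ur-3690. That gene is shown after them on its own strand with 60 bases upstream, and beside it 21ur-2469, which also has the word and lies by a stronger interval. In both piRNA genes capitals mark the upstream word and the 21 bases of the annotated piRNA.
Second domain, beside mir-52, IV:14034195-14034295: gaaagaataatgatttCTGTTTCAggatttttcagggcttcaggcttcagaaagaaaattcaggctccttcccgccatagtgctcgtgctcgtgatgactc
First domain, intron of fkh-7, IV:5591264-5591364: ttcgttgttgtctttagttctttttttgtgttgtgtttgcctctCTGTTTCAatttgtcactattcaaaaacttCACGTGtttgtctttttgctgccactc
Second domain, beyond dmd-6, IV:14624092-14624192: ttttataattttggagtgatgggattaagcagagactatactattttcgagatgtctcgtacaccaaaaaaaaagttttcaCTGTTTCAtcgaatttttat
21ur-3690 with upstream bases, IV:14624160-14624240, plus strand: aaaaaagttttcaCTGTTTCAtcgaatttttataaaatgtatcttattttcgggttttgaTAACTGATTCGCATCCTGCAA
21ur-2469 with upstream bases, IV:13919597-13919677, plus strand: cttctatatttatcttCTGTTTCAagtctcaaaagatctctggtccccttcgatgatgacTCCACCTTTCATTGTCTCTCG
The word began 47 bp before the 5′ end of 21ur-3690 and 44 bp before that of 21ur-2469. The summits lay 78 and 215 bp upstream of those 5′ ends, so the summit near 21ur-2469 was not over its upstream word.

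Candidates were sparser in the domains than on the rest of the chromosome. The pooled list held 211 candidates per Mb in both domains together and 301 per Mb on the rest of chromosome IV, a ratio of 0.700 (95% interval 0.657 to 0.746, from the Wilson interval of the domains' share). Replicate 1 gave 242 and 294 per Mb, and replicate 2 gave 199 and 300 per Mb. Both replicates thus had the lower density in the domains, and the gap was smaller in replicate 1. Each list held exactly 30000 candidates, so a density is relative to the other regions of the same list.

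The first domain was denser than the second in all 3 lists. Its density was 266 per Mb in the pooled list, 290 in replicate 1 and 267 in replicate 2, against 361, 338 and 360 on the rest of the centre of chromosome IV, which has 235 coding genes per Mb. The second domain, in the right arm, held 174 per Mb in the pooled list, 210 in replicate 1 and 154 in replicate 2. The left arm of chromosome IV, with 164 coding genes and 6.86 piRNA genes per Mb, held 220, 234 and 221. The right arms of chromosomes II and III held 274 and 286 pooled candidates per Mb, while those of chromosomes I and V held 212 and 119. In the pooled list the second domain was thus sparser than each of these arms except the right arm of chromosome V. All of these arms have few piRNA genes, and the cause of the differences was not tested.

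**Figure D1:**
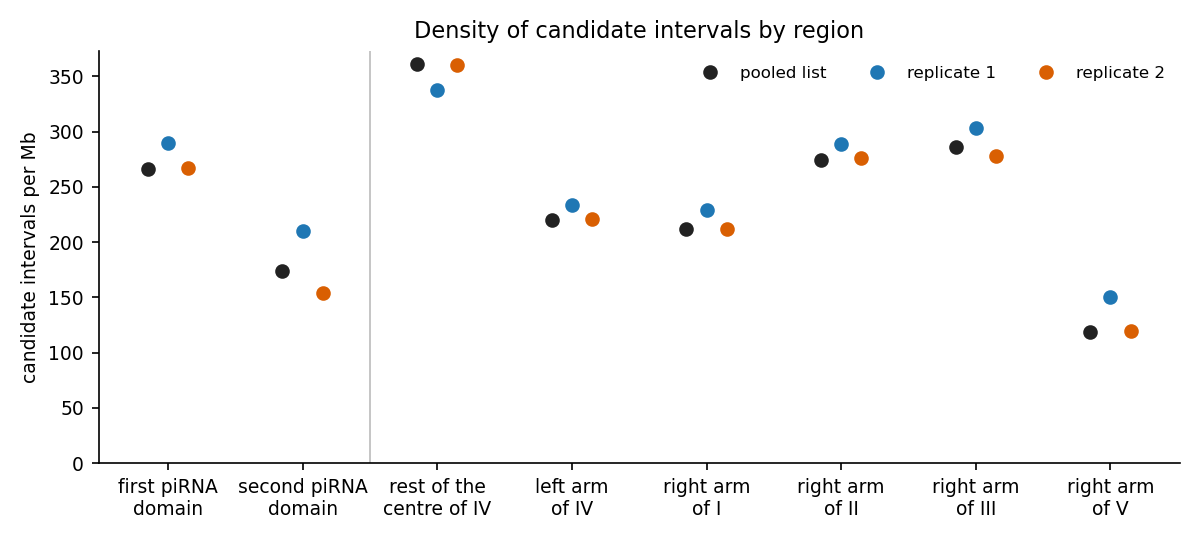
Candidate intervals per Mb (y axis) in the 2 piRNA domains and in 6 other regions (x axis), with 1 point for the pooled list and 1 for each replicate list. The second domain, at 174 pooled candidates per Mb, lies between the right arms of chromosomes V (119) and I (212).

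Candidates also varied within the domains. In bins of 500 kb, the 5 bins of the first domain held 97 to 198 candidates (median 130) and the 7 whole bins of the second held 52 to 128 (median 80.0). The 22 bins outside held 78 to 212 (median 162), so the 3 ranges overlapped. Over the 62 bins of 100 kb in the domains, Spearman's rho between candidates and piRNA genes was -0.210, but it was 0.197 over the 25 bins of the first domain and 0.222 over the 37 of the second. These bins share libraries and neighbours, and the weak values within domains, opposite in sign to the pooled one, are given as a description.

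The edges of the domains are round positions set by the rule. The nearest candidates on either side of the left edge of the first domain had signals of 40.3 (inside, 12202 bp away) and 12.4 (outside, 4658 bp), and those at its right edge 13.6 (35414 bp) and 21.3 (16261 bp). At the second domain they had 11.3 (inside) and 10.4 (outside) on the left and 12.9 (inside) and 23.3 (outside) on the right. The first 250 kb inside the first domain held 2 piRNA genes and the 250 kb before it 9, so piRNA genes are sparse around this edge. The left edge of the second domain was sharp, with 428 piRNA genes in the first 250 kb inside and 5 in the 250 kb before it. These 250 kb held 42 candidates inside and 86 outside. The same counts were 75 and 89 at the left edge of the first domain, 74 and 105 at its right edge, and 37 and 71 at the right edge of the second. Candidates were thus fewer inside at every edge.

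The strength of the candidates differed less than their density. The signal is the authors' own value for each interval, used here only to rank and describe intervals within a list. It ran from 9.85 to 987 in the domains, with a median of 16.5 (95% interval 15.8 to 17.2), against a median of 17.1 (16.8 to 17.6) on the rest of the chromosome. The medians were 17.3 in the first domain and 15.8 in the second. In replicate 1 they were 9.06 in the domains and 9.67 outside, and in replicate 2 they were 10.2 and 10.6. The domains had the lower median in all 3 lists. The intervals overlapped in the pooled list and in replicate 2 (9.90 to 10.7 and 10.3 to 10.9). They did not in replicate 1 (8.82 to 9.31 and 9.45 to 9.87).

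The share of candidates in the optimal list was 152 of 1307 in the domains (11.6%, 95% Wilson interval 10 to 13.5%), 382 of 3402 on the rest of chromosome IV (11.2%, 10.2 to 12.3%) and 12.2% over all pooled candidates. The domains' share was near this background. It was 76 of 664 in the first domain (11.4%) and 76 of 643 in the second (11.8%). As a counterpart in each replicate, the 3647 strongest intervals of its list were taken, as many as the optimal list holds. They made up 10.3% of the domains' candidates in replicate 1, against 11.6% outside, and 11.8% in replicate 2, against 11.3%, so the order of domains and rest differed between replicates. The weakest optimal interval in the domains had a signal of 52.3 and the strongest other interval 51.5. Because candidates were sparser, optimal intervals were sparser too, at 24.5 per Mb in the domains and 33.8 per Mb outside.

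**Figure D2:**
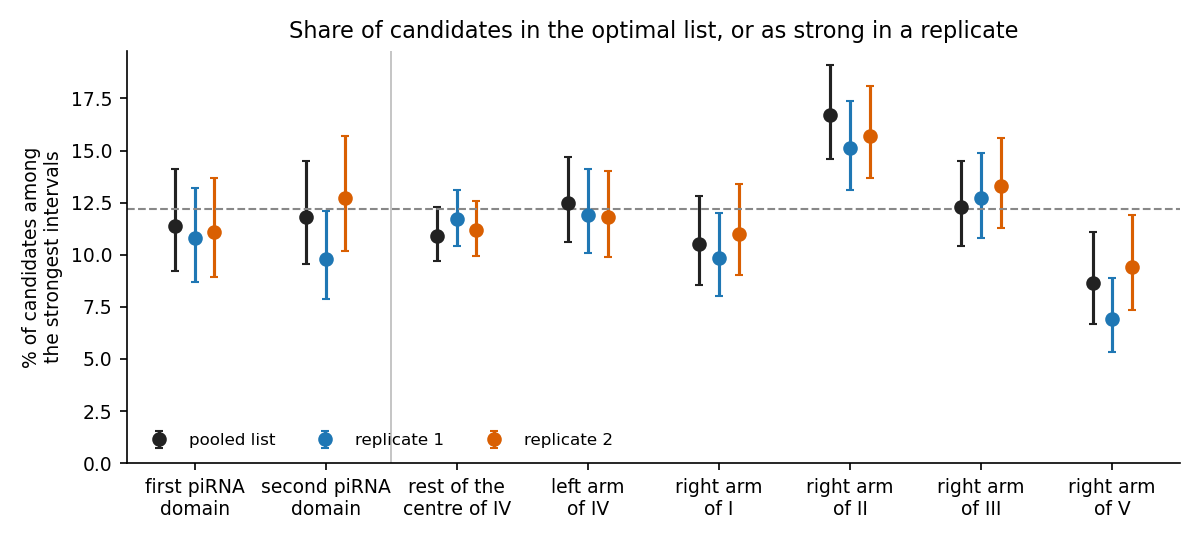
Percentage of candidates in the optimal list (pooled) or among the 3647 strongest intervals of a replicate list (y axis), by region (x axis), with 95% Wilson intervals as bars. The dashed line is the share over all candidates, 12.2%, and the intervals of both domains include it or, for the second domain in replicate 1 (7.90 to 12.1%), end just below it.

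Optimal intervals were near piRNA genes less often than the other candidates of the domains. A piRNA gene's 5′ end lay within 250 bp of the summit of 29 of 152 optimal intervals (19.1%, 95% Wilson interval 13.6 to 26.1%) and of 531 of 1155 other candidates in the domains (46.0%, 43.1 to 48.9%). Of all bases of the domains, 50.1% lie within 250 bp of such a 5′ end. The order was the same in the strongest intervals of both replicates, with 21.4% against 50.9% in replicate 1 and 17.8% against 42.4% in replicate 2. The median distance to the nearest piRNA 5′ end was 786 bp for optimal intervals and 279 bp for the others.

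Both domains showed this. In the first domain, 18.4% of optimal and 33.8% of other intervals had a piRNA gene within 250 bp, where 33.7% of bases do. In the second, these values were 19.7%, 58.6% and 61.2%. The other candidates thus lay near piRNA genes about as often as the bases of their domain, and the optimal ones less often. On the rest of chromosome IV, 3 of 382 optimal intervals (0.785%) and 58 of 3020 others (1.92%) had a piRNA gene this close.

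**Figure D3:**
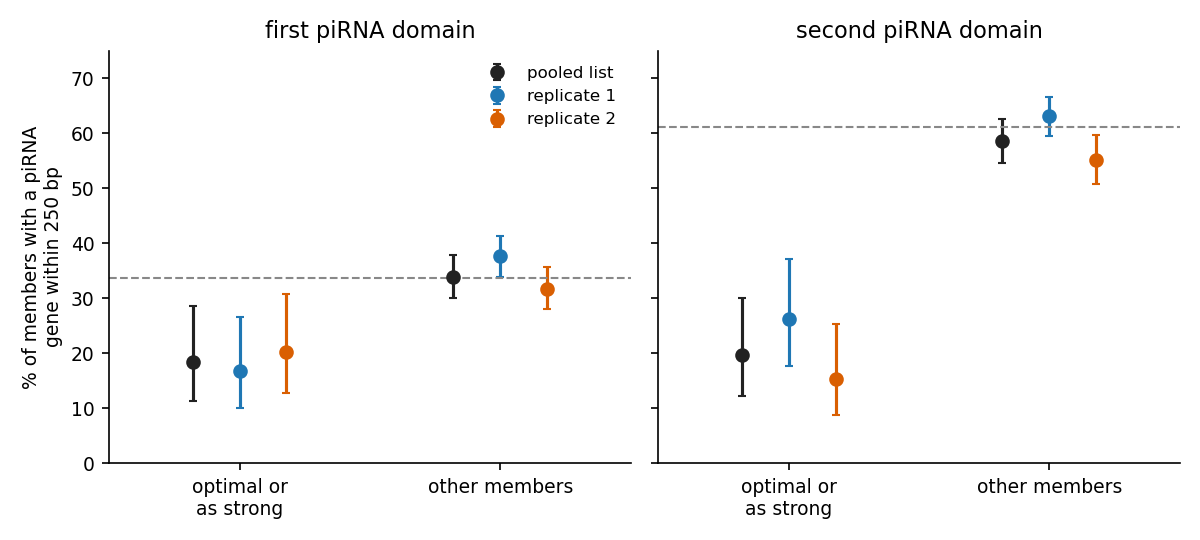
Percentage of intervals with a piRNA gene 5′ end within 250 bp of the summit (y axis), for optimal or equally strong intervals and for the other members (x axis), in each domain, with 95% Wilson intervals and the share of the domain's bases as a dashed line. The strongest intervals lie below the other members in each domain and list. They are at 16.7 to 20.3% against 31.7 to 37.6% in the first domain, where the Wilson intervals of replicate 2 overlap. In the second domain they are at 15.3 to 26.3% against 55.2 to 63.1%.

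In percentage points, the difference was small within 25 bp of piRNA genes, wider at 150 to 300 bp and faded at longer distances. These shares are cumulative and low for every set within 25 bp, which limits the difference there. As a ratio of optimal to other shares over both domains, the gap was not smaller close to the genes. The ratio was 0.260 (0.143 to 0.462) within 100 bp, 0.415 (0.296 to 0.567) within 250 bp and 0.653 (0.530 to 0.785) within 500 bp. Within 25 bp of a piRNA 5′ end lay 1.32% of optimal and 5.44% of other intervals in the first domain, and 5.26% and 9.35% in the second. Within 150 bp the shares were 6.58% and 24.0% in the first domain and 9.21% and 46.4% in the second. Within 300 bp they were 22.4% and 40.8%, and 32.9% and 64.0%. Within 5000 bp the shares were 75% and 78.4% in the first and 85.5% and 84.7% in the second.

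**Figure D4:**
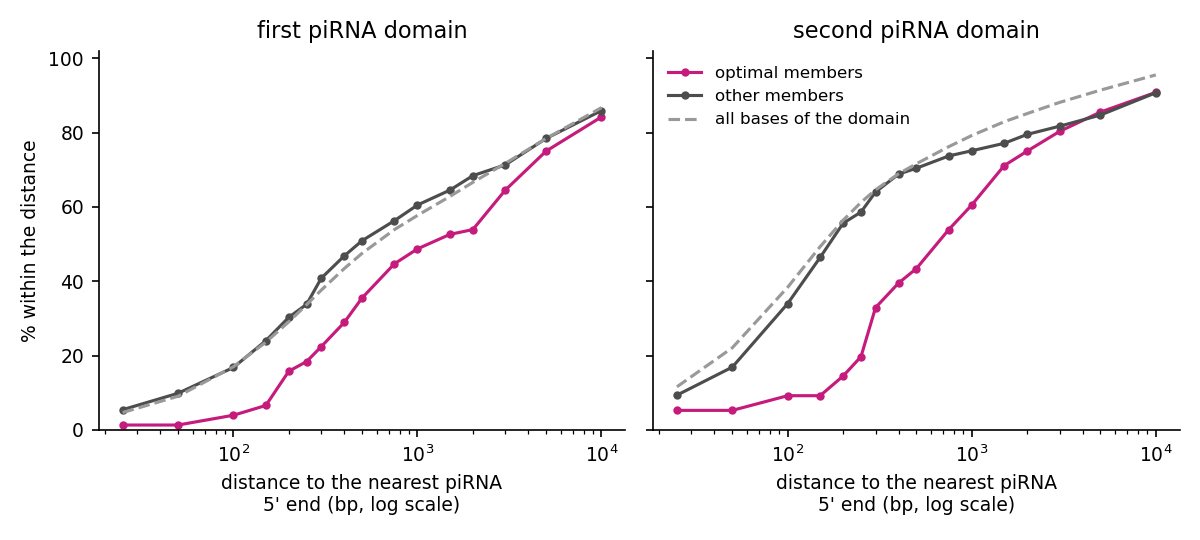
Cumulative percentage (y axis) of optimal members, other members and all bases of each domain within a given distance of the nearest piRNA 5′ end (x axis, bp, log scale). The curve of the optimal members runs below the other 2 up to 2000 bp in both domains and is close to that of the other members at 10000 bp.

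Base composition moved with this result. These windows held 43.9% ± 8.78 G and C at optimal intervals (SD, n = 152) and 34.6% ± 9.19 at the others (n = 1155), as they did on the rest of chromosome IV (44.3% ± 8.30 and 36.1% ± 8.14). Candidates near a piRNA gene averaged 31.6% and those without one 38.7%. Among candidates at or under the median of 34.7%, 14 of 29 optimal (48.3%) and 383 of 652 others (58.7%) had a piRNA gene within 250 bp, a ratio of 0.822 (0.534 to 1.12, from the Wilson interval of the optimal share). Among those over it, 15 of 123 (12.2%) and 148 of 503 (29.4%) did, a ratio of 0.414 (0.256 to 0.651). In low-GC windows the ratio's interval therefore includes 1. The part of base composition, and of how well reads align in these repeated small genes, was not tested.

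Read from the candidates' side, 29 of the 560 with a piRNA gene within 250 bp were optimal (5.18%, 95% Wilson interval 3.63 to 7.34%) and 123 of the 747 without one (16.5%, 14.0 to 19.3%), beside 12.2% over all candidates. Their median signals were 14.5 and 18.7. Over both domains together the optimal share was lower with more piRNA genes within 1 kb, from 15.6% with 0 to 12.6% with 1 to 3, 10.1% with 4 to 8 and 5.65% with over 8, while the mean GC content went from 38.6% to 31.7%. Neither domain alone had this steady order. The first gave 14.4%, 7.91%, 11.1% and 5.56% over the same steps, with 18 candidates in the last, and the second gave 17.5%, 28.3%, 9.18% and 5.66%.

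The optimal share was also compared within kinds of location. Promoter windows span 1000 bp before and 250 bp after the 5′ end annotated for each coding transcript. Among candidates in promoter windows, 9 of 106 with a piRNA gene within 250 bp were optimal (8.49%) and 61 of 291 without one (21%). In introns these were 4 of 164 (2.44%) and 11 of 134 (8.21%), and in intergenic sequence 14 of 237 (5.91%) and 39 of 166 (23.5%). Of these 3 classes, the Wilson intervals overlapped in introns and did not in the other 2. This held in the second domain alone, but in the first domain alone they overlapped in all 3. For intergenic candidates the shares were 6.02% (2.60 to 13.3%) and 15.2% (9.40 to 23.5%) in the first domain. In the second they were 5.84% (3.10 to 10.7%) and 35.8% (25.4 to 47.8%). In coding exons outside promoter windows, 0 of 28 and 0 of 79 were optimal, which gives no comparison.

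Seen from the piRNA genes, 1160 of 14204 in the domains had a candidate summit within 250 bp (8.17%) and 49 had an optimal one (0.345%). Per replicate, 10.8% had a candidate in replicate 1 and 6.82% in replicate 2. The upstream word, searched from 30 to 65 bp before the 5′ end on the gene's strand, was found at 34.7% of these genes. Genes with the word had a candidate about as often as all of them, at 8.69%, and an optimal interval at 0.426%. By domain, 11.6% of all piRNA genes of the first had a candidate and 0.746% an optimal one, against 7.31% and 0.246% in the second. On the rest of chromosome IV, 63 of 510 piRNA genes had a candidate (12.4%) and 3 an optimal one (0.588%).

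The word CTGTTTCA, searched on both strands in the windows around summits, was in 78 of the 1307 windows (5.97%, 95% Wilson interval 4.81 to 7.39%) and in 7.41% of 61385 windows of the same length tiled over the domains. Of the 78, 67 had a piRNA gene within 250 bp. It was in 3 of 152 optimal windows (1.97%, 0.673 to 5.64%) and in 6.49% of the others. On the rest of chromosome IV it was in 0.794% of candidate windows and 0.751% of tiles. In the domains, replicate 1 had it in 6.53% of candidate windows (5.39 to 7.89%) and replicate 2 in 4.21% (3.23 to 5.48%). The share over both domains together thus lay below that of the tiles in each list, though the interval of replicate 1 included the tiles' share. The domains differ in word frequency and in their part of windows and tiles. Taken alone, the first had it in 3.77% of pooled windows (2.56 to 5.50%) and 4.99% of tiles. The second had it in 8.24% (6.36 to 10.6%) and 9.04%, so both pooled intervals included the tiles' share. In replicate 1 the second domain lay above its tiles, at 9.66%.

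Other words were counted in the same windows. GAGAGA was in 25.7% of optimal windows, 8.66% of the others and 4.59% of tiles, and on the rest of chromosome IV in 30.9%, 9.37% and 5.32%. The E-box word CACGTG was in 6.58%, 1.82% and 1.30% in the domains, and in 8.12%, 2.58% and 1.77% outside. AGGTCA, a core site bound by many nuclear receptors, was in 1 of 152 optimal windows (0.658%, 95% Wilson interval 0.116 to 3.63%), 2.08% of others and 1.96% of tiles. On the rest of chromosome IV it was in 15 of 382 optimal windows (3.93%), 3.68% of others and 2.52% of tiles, and in the strongest windows of the domains it was in 1.30% in replicate 1 and 0.685% in replicate 2. TATAAA was in 5.92% of optimal windows, 13.4% of others and 13.7% of tiles. Each word was counted on both strands. GAGAGA and CACGTG were thus more frequent in optimal windows in the domains and outside them.

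The strongest interval of the domains lay between the divergent genes rpl-20, a protein of the large ribosomal subunit, and Y17G9B.5, at IV:4749917-4750237. Its signal was 987 in the pooled list, 398 in replicate 1 and 590 in replicate 2, and it ranked 5, 6 and 5 among all intervals of those lists. Both replicates thus placed it among their highest intervals, and no piRNA gene lay within 17656 bp. The second of the first domain, at ipla-6 and mif-4, the latter a gene of the macrophage migration inhibitory factor family, had 467, 159 and 309 in the same order of lists.

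In the first domain, the third interval was intergenic, 6682 bp upstream of nhr-46, a nuclear hormone receptor gene, with 372 pooled, 131 in replicate 1 and 243 in replicate 2. A further strong interval lay in an intron of nhr-46, at 226. The promoter of sqd-1, an RNA-binding protein gene, had 359, 141 and 217, and that of W03F8.4 had 295. Intronic intervals of transcription factor genes followed, at skn-1, an Nrf-type regulator of stress and early endoderm genes (276), and lag-1, the DNA-binding effector of Notch signalling (240). The others among the 12 strongest were the tRNA interval (216) and those upstream of F29B9.11 and jmjd-1.2, a histone demethylase (215), C17H12.2 and vha-8, a subunit of the vacuolar proton pump (212), and ruvb-2, a RuvB-like ATPase (189).

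In the second domain, the strongest interval was intergenic, at IV:14594242-14594618, and 13371 bp upstream of irld-18, the nearest coding 5′ end. It had 375 pooled, 154 in replicate 1 and 228 in replicate 2, with 8 piRNA genes within 1 kb and the nearest 419 bp away. The promoter of ntl-11, a subunit of the CCR4-NOT deadenylase, had 366, 148 and 214, and that of dld-1, the dihydrolipoamide dehydrogenase of mitochondrial enzyme complexes, had 323, 148 and 176. Those of a pair of genes with no common name (263), of Y57G11C.3 and mrps-7, a mitochondrial ribosomal protein (261), and of Y73F8A.27 (218) followed. Among them ranked intergenic intervals whose nearest coding 5′ ends were those of dmd-6, a DM-domain transcription factor gene (246), Y105C5A.1 (238) and srlf-26 (229). An intron of Y57G11C.22 had 188. Of the 12 strongest intervals, 7 lay in a promoter window in the first domain and 5 in the second.

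The strongest optimal intervals with a piRNA gene within 250 bp ranked 9 in the first domain and 10 in the second. In the first domain the strongest with a piRNA gene within 250 bp was the tRNA interval, with 216 pooled, 84.2 in replicate 1 and 136 in replicate 2. The 21ur-5229 gene lies 84 bp from its summit, and the tRNA gene under it. The next 4 had 93.9 (21ur-11261, in the promoter windows of F41H10.4 and hda-6, a histone deacetylase), 83.1 (21ur-6898), 82.2 (21ur-3187, at fkh-7, a forkhead factor gene) and 74.1 (21ur-3828 and 21ur-11417).

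In the second domain 3 of the 5 strongest such intervals had 212 (21ur-13200), 163 (21ur-4203) and 113 (21ur-7591 and 21ur-10179, at fbxa-83, an F-box gene, and a snoRNA gene). Another of the 5, near 21ur-2469, had 68.8 in replicate 1 and 132 in replicate 2, and the last, near 21ur-3939 at Y7A9D.1 and a tRNA gene, had 61.1 and 51.4. The interval at 21ur-13200 had 80.6 in replicate 1 and 134 in replicate 2, and its summit was 4 bp from the 5′ end of 21ur-13200. No upstream word lay in the 60 bases before that gene. The nearest coding 5′ end was 3570 bp away. Of the 3 optimal intervals with the upstream word, the one beside mir-52, a microRNA gene, had 86.4 (67.6 in replicate 1, 24.3 in replicate 2), that in fkh-7 had 86.3 (47.1 and 44.2) and that beyond dmd-6 had 61.2 (28.3 and 29.8).

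**Figure D5:**
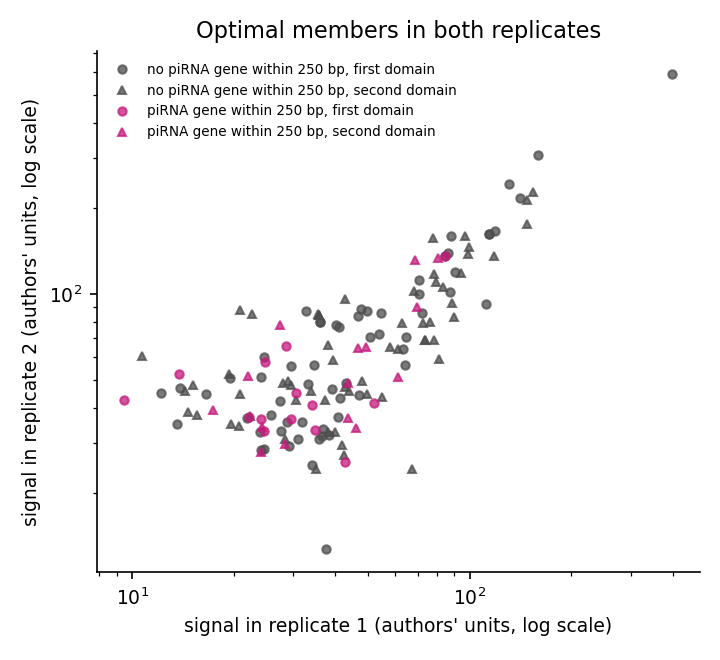
Signal of optimal members in replicate 1 (x axis) and replicate 2 (y axis), both in the authors' units on log scales, by domain (symbol) and by a piRNA gene within 250 bp of the summit (colour). Spearman's rho was 0.671 over the optimal members. None of those with a piRNA gene lies above 84.2 in replicate 1. By pooled signal the strongest of them rank 9 in the first domain (216) and 10 in the second (212).

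The optimal list was made by a reproducibility threshold, so overlap of its intervals with the replicate lists follows from that choice and is given as a description. Of the 152, 151 overlapped a candidate of each replicate by at least 1 bp, and 112 (73.7%) overlapped one of the 3647 strongest of each. The exception, at IV:14576480-14576869 beside a tRNA gene, had no replicate 1 candidate and 33.3 in replicate 2. Of the other 1155, 551 were in both lists (47.7%) and 91 of them in neither. Over all 1307 the share in both was 53.7% (95% Wilson interval 51 to 56.4%), against 56.8% (55.2 to 58.5%) on the rest of the chromosome. It was 56.9% in the first domain and 50.4% in the second. Nearly all of the other candidates, 99.8%, had the same width of 390 bp, as did 73.0% of the optimal ones, so widths carry little information.

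Coding promoters were a smaller part of the candidates in the domains. Of the 1307, 397 had their summit in a promoter window (30.4%, 95% Wilson interval 27.9 to 32.9%), against 1291 of 3402 on the rest of chromosome IV (37.9%, 36.3 to 39.6%). Promoter windows cover 22.1% of the bases of the domains and 29.3% of the rest. Replicate 1 gave 26.2% and 36.9%, and replicate 2 gave 32.4% and 39.1%. Of optimal intervals, 70 of 152 were in promoter windows (46.1%, 38.3 to 54.0%), against 209 of 382 outside (54.7%, 49.7 to 59.6%). Intergenic sequence held 53 optimal intervals in the domains (34.9%), against 23.3% outside, and covers 38.1% and 20.8% of the bases. No optimal interval of the domains had its summit in a coding exon outside promoter windows, which allows up to 2.46% by the Wilson interval, while 107 of the 1307 candidates did. Of the equally strong intervals, 5 of 154 did in replicate 1 (3.25%, 1.39 to 7.37%) and 1 of 146 in replicate 2 (0.685%).

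Counted by gene, 84 of 941 coding genes of the domains had an optimal summit in a promoter window (8.93%, 95% Wilson interval 7.27 to 10.9%), against 252 of 2340 on the rest of chromosome IV (10.8%, 9.58 to 12.1%) and 11.6% of all nuclear coding genes. A candidate was found at 301 (32.0%) and 982 (42.0%), beside 41.2% genome-wide. Among genes with a candidate, 27.9% and 25.7% had an optimal one, beside 28.1% genome-wide. So genes of the domains less often had a candidate, and those that had one had an optimal one about as often. By domain, 48 of 482 genes (9.96%) and 36 of 459 (7.84%) had an optimal summit.

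Gene families that lie in the domains ranged from none to all. All 5 ribosomal protein genes had an optimal interval, led by rpl-20 (987), rpl-29 (174, shared with thoc-7) and rps-18 (148, shared with sec-61.A). Elsewhere in the genome 57 of 76 such genes did. Of 68 chemoreceptor genes, 11 had a candidate and 2 an optimal one, srv-15 (66.5) and srd-10 (60.1), while the third, srw-95, had 29.7 and was not optimal. Of 5 nuclear receptor genes, nhr-104 (75.2) and nhr-46 (69.2 in its promoter window) had an optimal interval and nhr-5 a candidate at 19.4. Of 7 F-box genes only fbxa-83 had a candidate, which was optimal (113). Outside the domains, 176 of 1103 chemoreceptor genes had a candidate and 21 an optimal one. For nuclear receptor genes these were 148 and 31 of 264, and for F-box genes 40 and 8 of 315.

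No major sperm protein gene, of 9, had a candidate, and 1 of 22 elsewhere did. These genes encode the cytoskeletal protein of nematode sperm. Of 9 C-type lectin genes, 1 had a candidate, clec-178 (24.8), and of 6 collagen genes 3 did, col-110 (26.3), col-111 (15.1) and col-133 (12.6), none optimal. Elsewhere 15 of 150 collagen genes and 4 of 231 lectin genes had an optimal interval.

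Among noncoding genes other than piRNA genes, those annotated only as ncRNA were most often near optimal intervals, at 27 of 152 (17.8%) against 5.11% of the others. On the rest of chromosome IV these shares were 14.4% and 5.13%. Of the same 152, 12 had a tRNA gene within 250 bp (7.89%), against 1.73% of the others, and on the rest of chromosome IV the values were 2.36% and 0.232%. The domains hold 321 of these ncRNA genes and 41 tRNA genes, and the rest of chromosome IV holds 737 and 30. Among candidates of the domains this close to an ncRNA gene 31.4% were optimal, and 37.5% among those close to a tRNA gene. The strongest of the 12 with a tRNA gene were the tRNA interval of the first domain (216) and the one at IV:14611025-14611208 (186) upstream of dmd-6. The tRNA interval overlaps a second, weaker one at IV:5967179-5967568 (70.3) next to the same gene. Small nuclear RNA genes were near 3 optimal intervals, at signals of 64.7, 59.8 and 57.1, and 2 of these genes, sls-2.17 and sls-2.13, encode spliced leader RNA. Both optimal intervals with a microRNA gene within 250 bp, at 123 and 86.4, lay at mir-52, and the 2 with a snoRNA gene had 120 and 113. Small nuclear RNA genes were near 1.97% of optimal and 0.346% of other intervals, microRNA genes near 1.32% and 0.173%, and snoRNA genes near 1.32% and 0.260%. On the rest of chromosome IV these shares were 0.524% and 0.232%, 0.524% and 0.166%, and 3.93% and 0.364%. These noncoding genes were picked with their values in view.

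The genes that make or act with piRNAs were looked up across the genome. Of 26 such genes, 25 were matched in the annotation. A candidate lay in a promoter window of 11 of them, where 41.2% of all coding genes have one, and an optimal interval in that of 1, where 11.6% do. That gene, tofu-1, named for a screen of genes needed for 21U-RNA production, had 78.9 pooled, 29.0 in replicate 1 and 52.9 in replicate 2.

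Among the components of the complex at piRNA promoters, snpc-4, also a subunit of the small nuclear RNA activating complex, had a candidate at 32.8 with 30.3 in replicate 2 and none in replicate 1. For tofu-5 the values were 26.1 pooled, 23.1 in replicate 1 and 9.63 in replicate 2, and prde-1 and tofu-4 had no candidate. Of the piRNA 5′ end processing proteins pid-1, pid-3, tost-1, ife-3 and slfl-3 had 10.2, 19.0, 39.0, 42.1 and 11.8, and of these pid-3 and ife-3 had an interval in both replicates. The methyltransferase gene henn-1, which modifies piRNA 3′ ends, had 36.9, the forkhead gene unc-130 15.1 and the chromatin remodeller gene isw-1 24.1. The Piwi gene prg-1 had no candidate, nor did slfl-4, the only listed gene inside the domains.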

How the data were processed

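The authors deposited 1 list of 30000 candidate intervals per replicate, 1 pooled list and 1 optimal list, per the file names and labels. Each row held start, end, summit offset, a signal and a −log10 q-value, as deposited by the authors. The sources used here name no aligner, peak caller, settings or reproducibility threshold. Positions are in ce11, and ce10 lists served as an alternative with the same boundary numbers and no conversion.

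Gene models were from Ensembl release 115, on WBcel235. Summits were placed by Python 3.11.15 with numpy 2.4.6, pandas 2.3.3 and scipy 1.17.1, and figures drawn with matplotlib 3.10.9. Shares carry 95% Wilson intervals and medians 95% order-statistic intervals. No test was run between regions, since neighbouring intervals are not independent and are not replicates. The functions for the density ratio and the Wilson share were tried on simulated data with independent, evenly spread positions. Real intervals are not independent, so this does not show how well the printed intervals hold here. The −log10 q-value, 4.00 at every optimal interval of the domains, was not used to rank. Arms are the outer 25% of a chromosome at either end.

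The domains, lists and words were chosen with earlier results of these data known. Genes named were those at the 12 strongest intervals of each domain, at the 5 strongest with a piRNA gene within 250 bp, at domain edges, up to 3 of each family, and piRNA pathway genes with a candidate. The alternatives covered domain limits, genome build, repeated entries, reference region, distance, promoter window, word window, overlap and each replicate alone.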

Additional observations from a re-analysis of the deposited data

How the results depend on the processing

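Results were recomputed under 56 alternatives, of which 41 stayed within the interval of the value reported and 15 did not. The 41 include the settings with repeated entries counted once, which left every value as reported. They also include the ce10 lists, which gave nearly the same values. These settings changed little or nothing, so the count of 41 overstates how far the results were tried. None turned a ratio whose interval excluded 1. With domains 250 kb longer at either end, the density ratio of domains to rest was 0.777 (0.700 as reported) and the promoter share ratio 0.901 (0.800). The second domain against the left arm gave a density ratio of 0.792 and an upstream word ratio of 19.8 (7.52), and the first domain against the rest of the centre gave a promoter share ratio of 0.868 and a word ratio of 3.86. With each replicate left out in turn, the density ratio ran from 0.665 to 0.825, the optimal share ratio from 0.884 to 1.05 (1.04), the promoter share ratio from 0.710 to 0.829 and the word ratio from 4.91 to 8.02. The ratio of piRNA gene shares, optimal to other intervals, was 0.415 as reported. It was 0.265 with the stronger 50% of the optimal list, 0.260 within 100 bp, 0.653 within 500 bp and 0.822 at or under the median GC content, the last chosen after seeing the data. With at least 50% of an interval covered, the share found in both replicates was 39.9% (53.7%). The cause was not tested for any of these. No paired analysis was possible because there was 1 group of 2 replicates. Depth is unknown, so how far it limits these lists could not be given.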

Other observations

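Optimal intervals often came in groups, here as on the rest of chromosome IV. Of the 152, 76 had another optimal summit within 5 kb (50%), and of the 382 outside the domains 200 did (52.4%). These counts include intervals that overlap another optimal one, 12 in the domains and 10 outside. The group with the most intervals lay upstream of dmd-6, a DM-domain transcription factor gene, with 5 optimal intervals in 3457 bp at signals of 100 to 246.0 and none in a promoter window. A second group of 3 lay in and beyond dmd-6, at 56.6 to 91.4. Around mir-52, 4 optimal intervals lay in 1288 bp at 86.4 to 133.0, with no piRNA gene inside the group. Intervals within the mir-52 group, the group upstream of dmd-6 and the skn-1 group overlap each other in part, so these hold several summits of 1 stretch and not only separate sites.

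Groups also lay at fkh-7 (3 in 3376 bp, 52.8 to 139.0), at nhr-46 (3 in 6452 bp and 3 in 3251 bp, with 13 and 7 piRNA genes inside), at skn-1 (3 in 1560 bp, 77.3 to 276.0) and at gln-3, a glutamine synthetase gene (4 in 4194 bp, 73.9 to 184.0). The first nhr-46 group also held 7 candidates that were not optimal. These groups were picked with their values in view, and no test was made.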
